A study of Ovis aries with 2 samples.

Results

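Endothelial cells, which line blood vessels and the heart, were picked out of the embryos of Ujumqin and Hulunbuir Short-tail sheep by their RNA. A kept cell barcode had at least 200 genes and under 10% of its UMIs (counted RNA molecules) on mitochondrial genes. A kept cell was called endothelial when it had a UMI in at least 3 of the 6 genes CDH5, PECAM1, TIE1, TEK, EGFL7 and PLVAP. The rule found 457 of 24137 kept cells, 148 of 14554 in Ujumqin and 309 of 9583 in Hulunbuir. The study compared the short-tailed Hulunbuir breed with the long-tailed Ujumqin breed, its control group, to ask how tail form arises. Embryos of both breeds were taken on day 16 of pregnancy from adult ewes whose cycles had been set with progesterone sponges and PMSG. Extraembryonic tissue was removed with forceps, the embryos of a breed were pooled, and red blood cells were lysed before loading on the 10x platform. The series text gives 3 per group, but the deposit holds 1 matrix per breed, so no animal or embryo could be told apart.

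With 1 library per breed there were no replicates, and no test was made between the breeds. Breed, library and pool of embryos cannot be told apart in any comparison below. All intervals are 95% and cover counting error only, exact Poisson for sums of UMIs and exact binomial for shares of cells. Levels are CPM, the summed UMIs of a gene in each 1000000 summed UMIs of all genes in the same cells. The Ujumqin matrix held 212933364 UMIs over 17059 barcodes, and the Hulunbuir matrix 131385353 UMIs over 10709 barcodes. The endothelial cells held 6948357 UMIs in Ujumqin, with a median of 30722 per cell, and 8617825 in Hulunbuir, with a median of 22952. The libraries shared 61 barcodes, and 0 of them were endothelial in both.

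Endothelial cells arise from mesoderm as angioblasts, which join into a first plexus of vessels in the yolk sac, the allantois and the embryo. VEGF made by neighbouring tissue acts on its receptors on these cells, angiopoietins act on TEK, and Notch signals help to set arteries apart from veins. The first blood cells form beside them, and some endothelial cells later give rise to blood progenitors.

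The values that chose the cells are given first, as a description. PLVAP, a protein of the diaphragms that span vessel pores, had a UMI in all 148 Ujumqin and all 309 Hulunbuir endothelial cells. PECAM1, an adhesion receptor of endothelial junctions, was found in 93.9% and 97.1%. TEK, the angiopoietin receptor, was found in 57.4% and 46.3%. CDH5, the cadherin of endothelial junctions, was found in 45.3% in Ujumqin and 40.1% in Hulunbuir. EGFL7, a secreted protein of the vessel matrix, was found in 41.9% and 60.8%. TIE1, the partner receptor of TEK, was found in 23.0% and 20.4%. Erythroid-like cells of Ujumqin, which should lack these genes, had PLVAP in 3.11% and PECAM1 in 0.431% at a median of 20361 UMIs. In Hulunbuir, which had no erythroid-like cluster, a cluster named neural had PLVAP in 32 of 291 cells and PECAM1 in 2.06% at a median of 7965 UMIs. All other non-erythroid cells had PLVAP in 19.3% in Ujumqin and 24.4% in Hulunbuir.

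The endothelial share of kept cells was 1.02% in Ujumqin (0.860 to 1.19%) and 3.22% in Hulunbuir (2.88 to 3.60%). Without the 5109 erythroid-like cells, the Ujumqin share was 1.57% (1.33 to 1.84%). The rule needs several genes per cell, so its share follows depth. Other non-erythroid cells had a median of 1771 UMIs in Ujumqin and 11591 in Hulunbuir. With every cell thinned to 2000 UMIs, and cells with fewer left out, the shares were 0.106% and 0.282%. Without erythroid-like cells the thinned Ujumqin share was 0.220%, 10 of 4544 cells (0.106 to 0.404%), beside 24 of 8520 in Hulunbuir (0.181 to 0.419%), so a difference was not detectable at equal depth.

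The cells on either side of the rule's limit differed in genes that the rule did not use. KDR, the main VEGF receptor, stood at 190.2 CPM in the 84 Ujumqin cells with exactly 3 rule genes and at 24.8 in the 304 cells with exactly 2. In Hulunbuir it stood at 194 in 161 cells with exactly 3 and at 91.6 in 373 cells with exactly 2. CD93, a receptor of endothelial adhesion, fell in the same way, from 212 to 34.8 in Ujumqin and from 159 to 67.3 in Hulunbuir. Of the cells with exactly 2 rule genes, 11.5% in Ujumqin and 52.0% in Hulunbuir lay in clusters named endothelial when all kept cells were clustered without these genes, though the names drew on them. In the larger Hulunbuir cluster alone the count was 145 of 373. A Ujumqin cluster without a name, described next, held 39 more of them.

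**Figure D1:**
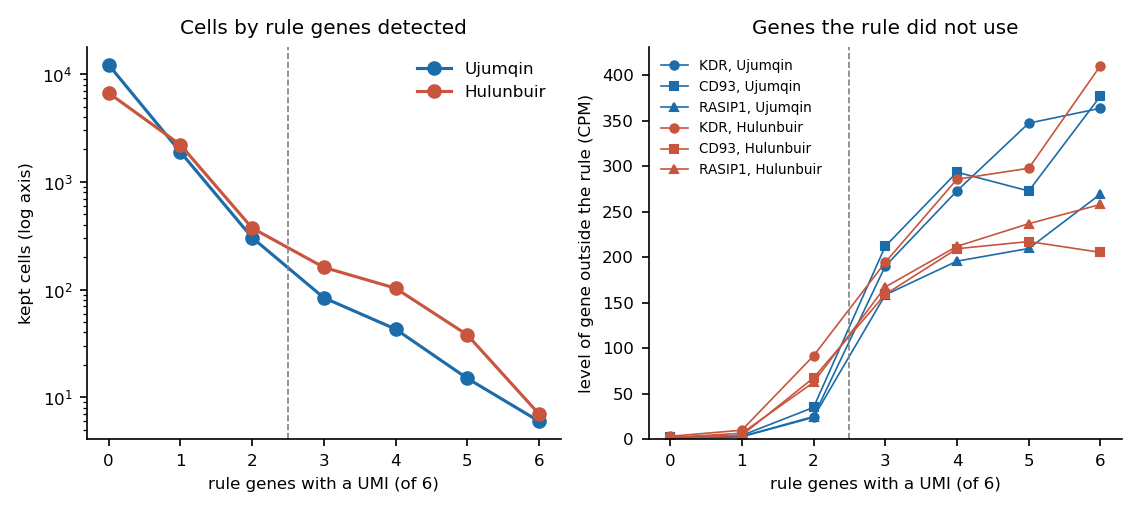
Kept cells (left, log axis) and the levels in CPM of 3 genes outside the rule (right) by the number of rule genes with a UMI, for each library. The dashed line marks the rule's limit, across which KDR rises from 24.8 to 190.2 in Ujumqin and from 91.6 to 194 in Hulunbuir.

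Clustering of all kept cells, with the rule genes and EMCN left out of the genes used, placed 122 of the 148 Ujumqin cells (82.4%) in 1 cluster of 164 cells. It placed 293 of the 309 Hulunbuir cells in a cluster of 496 cells and 6 in a second of 207 cells, 96.8% together. All of these clusters were named endothelial from markers that included rule genes, so the names are not independent of the rule. Of the markers found in the Ujumqin cluster, 4 of 11 were neither rule genes nor EMCN. The counts were 4 of 11 in the larger Hulunbuir cluster and 1 of 3 in the second. The second Hulunbuir cluster was shallow, with a median of 1441 UMIs, and only 6 of its cells had enough rule genes. A shallow Ujumqin cluster of 333 cells, with a median of 1082 UMIs, also had PECAM1 at 166 and RASIP1 at 124 CPM, and 6 of its cells were endothelial by the rule. It received no name. EMCN, a sialomucin of capillary and venous endothelium that the rule did not use, was at 4.75 in Ujumqin and 5.57 in Hulunbuir endothelial cells, against 0.13 and 0.21 in the other non-erythroid cells.

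Genes outside the rule were compared between endothelial and other non-erythroid cells within each library, as a description. The other cells were all kept non-erythroid cells that missed the rule, so they held the rest of the endothelial clusters too. In the Ujumqin cluster 122 of 164 cells met the rule, and in the larger Hulunbuir cluster 293 of 496. Levels and library folds of endothelial genes in other cells thus came partly from such cells, to an extent that was not tested. Of 11106 features with at least 20 UMIs in each library, 62 (0.558%) were at least 4-fold higher in the endothelial cells of both libraries and at 20 CPM or more. Of these, 57 had a symbol. The list of other endothelial genes held 38 genes, 34 of them among the features. In that list 7 of the 21 genes tested were called, against 0.558% of all features, in a comparison where the cells had been chosen by related genes.

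The 20 genes with the largest fold, taken in the library where it was smaller, began with NOS3, the nitric oxide synthase of vessels, at 149.7 CPM in Ujumqin and 129 in Hulunbuir. Other non-erythroid cells had NOS3 at 2.07 and 2.58, so the folds were 72.5 and 50.1. ESM1, a proteoglycan secreted by endothelium and used as a marker of tip cells, stood at 175 and 104 against 1.90 and 3.02. RASIP1, which is needed for vessels to form lumens, stood at 183 and 200.3 against 4.21 and 6.20. The 20 also included THSD1, RGS5, BATF3, STAB1, PDGFD, CD93, NR5A2, DNASE1L3, DYSF, KDR, EXOC3L1, ICAM3, FOXO1, USHBP1, FLT1, TCN2 and KLF2. Across the 20, the smaller fold ran from 13.7 for KLF2 to 50.1 for NOS3.

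**Figure D2:**
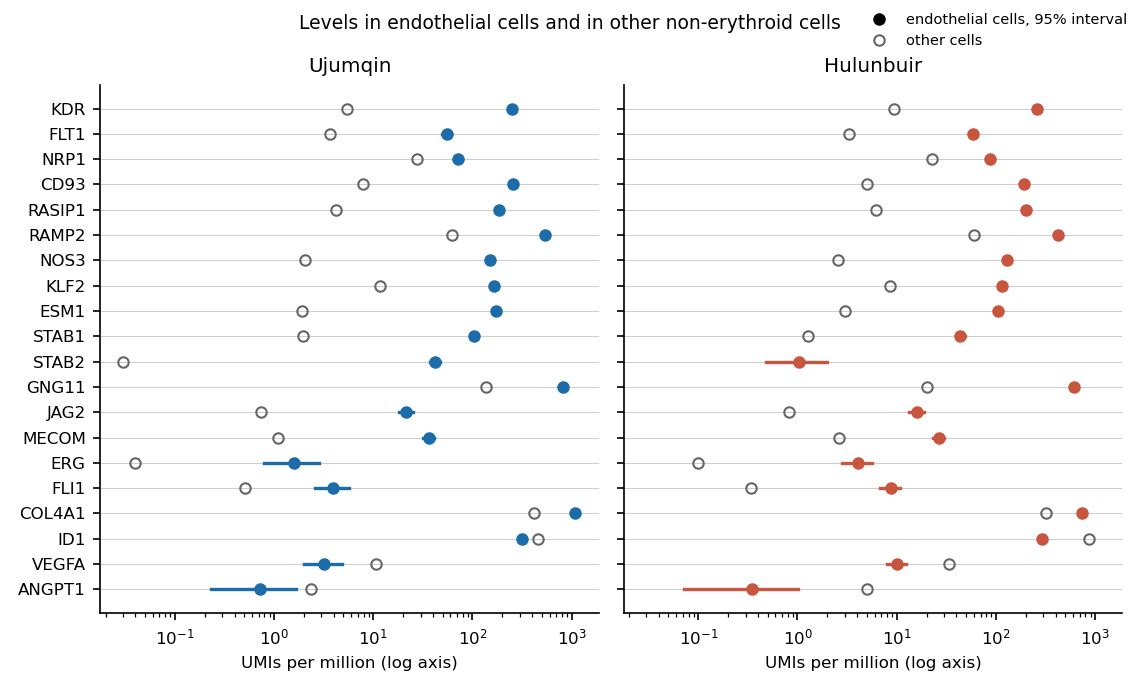
Levels in CPM (log axis) of 20 genes of the lists in endothelial cells (filled, with 95% Poisson intervals) and in other non-erythroid cells (open) of each library. KDR lies at 248 and 257 in endothelial cells and VEGFA lies lower there than in other cells, at 3.17 against 10.7 in Ujumqin.

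KDR was at 248 CPM in Ujumqin and 257 in Hulunbuir, a log2 fold of 0.05 (-0.04 to 0.14) for Hulunbuir over Ujumqin, where other cells had 0.81. Cells with exactly 2 rule genes counted as other cells, and 11.5% of them in Ujumqin and 52.0% in Hulunbuir lay in endothelial clusters. The 0.81 is therefore not a value of non-endothelial cells alone. FLT1, which binds VEGF and limits its action on KDR, was at 55.1 and 58.1, a log2 fold of 0.08 (-0.12 to 0.27). Both intervals held 0, and that of FLT1 also held the median of 0.25 over features with at least 50 CPM. Both lay below the median of 0.38 over all genes with a symbol, described below. The log2 fold of KDR ran from -0.09 to 0.68 over the other ways of processing. NRP1, a co-receptor, was at 71.5 and 86.3, and was only 2.60-fold and 3.79-fold above the other cells. FLT4, the receptor for VEGFC, had 4 and 6 UMIs. Of the ligands, VEGFB was the most abundant, at 27.5 and 26.5 in endothelial cells against 31.2 and 40.9 in other cells. VEGFA was at 3.17 and 9.98 in endothelial cells against 10.7 and 33.7 in other cells, lower in both libraries. Its log2 fold of 1.66 between the libraries was the same in both kinds of cell. VEGFC had 5 UMIs in Ujumqin and 36 in Hulunbuir, a log2 fold of 2.54 (1.18 to 4.24), and VEGFD had 0 in both.

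Among the angiopoietins, ANGPT2, a ligand that endothelium makes and that can block TEK, was at 4.03 in Ujumqin and 6.27 in Hulunbuir against 1.17 and 0.71 in other cells. ANGPT1, the activating ligand made by cells around vessels, was at 0.72 and 0.35 against 2.36 and 5.05. So the ligand of endothelium was higher, and the ligand of the surrounding cells lower, in endothelial cells of both libraries. SVEP1, an extracellular ligand of TIE1, was also lower in them, at 0.86 and 0.35 against 3.90 and 3.97.

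The Notch list had 14 genes, 10 of them with at least 10 UMIs in the endothelial cells of both libraries together. JAG1, a Notch ligand, was at 21.2 CPM in Ujumqin and 21.0 in Hulunbuir. JAG2, a second ligand, was at 21.4 and 16.0, and was 29.3-fold and 19.4-fold above other cells. DLL4, the ligand of arteries and tip cells, was far sparser, with 6 and 23 UMIs. NOTCH4, the receptor most particular to endothelium in other species, was at 5.47 and 10.4, a log2 fold of 0.93 (0.37 to 1.52) where other cells had 1.30. HEY1, a target of Notch in arteries, was at 3.74 and 5.69, and HEY2 had 1 and 3 UMIs. The list's median log2 fold was 0.53, beside 0.38 over the 7894 genes with a symbol and the same minimum. That median of 0.38 over all genes is the shift against which the folds between libraries are to be read, and it was 0.37 in the other cells.

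The 16 arterial genes with enough UMIs had a median log2 fold of 0.04 between the libraries, against that 0.38, and this median ran from -0.20 without the sub-clusters led by genes of other cells to 0.45 with at least 2 rule genes. MECOM, a transcription factor of arterial endothelium, was at 36.3 in Ujumqin and 26.6 in Hulunbuir against 1.10 and 2.64 in other cells. GJA5, a gap junction protein of arteries, was at 4.89 and 5.22 against 0.03 and 0.22. CXCR4, a chemokine receptor of forming arteries, was at 23.8 and 21.1, but the other cells of Hulunbuir had it at 19.3 and those of Ujumqin at 2.04. SOX17 had 4 and 6 UMIs. With cells thinned to 2000 UMIs, 18 of 145 Ujumqin cells (12.4%) and 31 of 303 Hulunbuir cells (10.2%) had UMIs of at least 2 arterial genes, and 3 and 6 cells with fewer UMIs were left out. Unthinned, the shares were 79.1% and 67.6%. The thinned intervals, 7.53 to 18.9% and 7.06 to 14.2%, overlapped.

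Venous genes were fewer. NR2F2, the factor that holds venous identity, was at 19.9 and 21.7 CPM, only 1.86-fold and 1.14-fold above other cells. EPHB4, the venous receptor for the arterial ligand EFNB2, had 11 UMIs in Ujumqin and 5 in Hulunbuir. Both of these separated endothelial from other cells weakly. At least 2 venous genes were found in 1.38% of thinned Ujumqin cells and 1.32% of thinned Hulunbuir cells, and in 40.5% and 25.6% unthinned. The 8 venous genes had a median log2 fold of -0.56. This median ran from -1.03 without the sub-clusters led by genes of other cells to -0.019 with at least 2 rule genes. The sum of the venous genes was 175 in Ujumqin and 74.0 in Hulunbuir.

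The difference in that sum lay with the scavenger receptors. STAB1, a receptor that clears ligands from blood in sinusoidal endothelium, was at 104 CPM in Ujumqin and 43.8 in Hulunbuir, a log2 fold of -1.25 (-1.43 to -1.07). STAB2, its relative that takes up hyaluronan, was at 41.6 and 1.04, a log2 fold of -5.32 (-6.46 to -4.37). The STAB2 UMIs were 289 in 26 of the 148 Ujumqin cells and 9 in 5 of the 309 Hulunbuir cells. In erythroid-like cells of Ujumqin 1 of 5109 had a STAB2 UMI, and in the neural cluster of Hulunbuir 0 of 291 had one. STAB2 was thus present in a minority of the Ujumqin endothelial cells and near the background in Hulunbuir. GPR182, a receptor of sinusoidal and lymphatic endothelium, moved the same way, with 28 and 7 UMIs. Over the other ways of processing, the log2 fold of STAB2 ran from -6.81 to -4.83.

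Lymphatic genes were scarce. PROX1, the factor that starts lymphatic fate, had 15 and 12 UMIs, MMRN1 had 21 and 10, and RELN and CCL21 had 0. Of 9 endocardial genes with a feature, 5 had enough UMIs, and CGNL1 led them at 14.7 and 20.7 against 12.3 and 20.7 in other cells. NFATC1, the factor that defines endocardium, had 1 UMI in each library. NPR3, a natriuretic peptide receptor of endocardium, was at 2.30 and 1.62 against 0.24 and 0.24.

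Of the 10 genes of blood progenitors with a feature, 2 were at 0 in Ujumqin and 6 in Hulunbuir endothelial cells, and CORO1A led at 17.4 and 13.8. RUNX1, which endothelium needs to give rise to blood, had 1 UMI in Ujumqin and 0 in Hulunbuir, and GFI1B and IKZF1 had 0 in both. KIT, a receptor shared by blood progenitors and endothelium, was at 8.06 and 11.3 against 0.50 and 1.19 in other cells. GATA1 and KLF1, factors of red cells, had 54 and 31 UMIs in Ujumqin and 0 in Hulunbuir. The list's median log2 fold was -3.48, over 5 genes with zeros set to 3 counts, and other cells had -6.15. That median ran from -4.19 as a mean of the cells' CPM to -1.56 with at least 4 rule genes. Thinned, 0 of 145 and 0 of 303 cells had UMIs of 2 such genes. Unthinned, the shares were 22.3% and 8.41%, so the thinned shares do not limit how many cells had these genes.

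The list of endothelial transcription factors summed to 367 in Ujumqin and 369 in Hulunbuir, led by KLF2. ETV2, the ETS factor that starts endothelial and blood fate in the mouse, was at 31.1 and 49.1 CPM, but other cells had it at 18.9 and 26.0. ERG, the ETS factor that maintains endothelium, had 11 and 35 UMIs, and FLI1 was at 3.89 and 8.70 against 0.51 and 0.34. ELK3, an ETS factor of angiogenesis, was at 23.2 and 32.7 against 2.11 and 2.37. HHEX, a homeobox factor of early endothelium and blood, was at 16.0 and 28.7 against 0.77 and 1.89. LMO2 and TAL1, partners in the complex that sets blood and endothelial fate, had 13 and 2 UMIs in Ujumqin and 66 and 20 in Hulunbuir. Of the 15 factors with enough UMIs, 5 were at least 2-fold higher in Hulunbuir and 0 were lower, beside 1543 and 433 of 7894 over all genes, with a median log2 fold of 0.62 beside 0.38 over all genes. Among the SOX factors of vessels, SOX7 had 1 and 7 UMIs and SOX18 had 5 and 21.

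Of the 5 genes of the blood flow list with a feature, 2 were called over other cells, KLF2 and NOS3, against 0.558% of all features. The cells had been chosen by related genes. KLF2, the transcription factor that shear stress raises, was at 166 in Ujumqin and 116 in Hulunbuir against 11.8 and 8.49 in other cells. EDN1, the vasoconstrictor endothelin, was at 6.48 and 3.60 against 0.17 and 0.26. PIEZO1, a channel opened by membrane stretch, was at 57.9 and 26.0, a log2 fold of -1.15 that other cells shared at -1.10. The list had a median log2 fold of -0.51, below the shift of 0.38, where other cells had -0.47.

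Among BMP and TGF-beta genes, ENG, a co-receptor of endothelium, was at 24.5 in Ujumqin and 11.02 in Hulunbuir, a log2 fold of -1.15 (-1.53 to -0.78). TGFBR2, a receptor for TGF-beta, was at 11.4 and 3.48, a log2 fold of -1.71 (-2.37 to -1.08), where other cells had -2.04. BMP4 was lower in endothelial than in other cells, at 0.86 and 1.97 against 11.7 and 42.3. The ID genes are targets of BMP signals that block differentiation factors. ID1 was at 313 and 289 in endothelial cells, a log2 fold of -0.11 (-0.20 to -0.03), while other cells had 457 and 870, a log2 fold of 0.93. ID3 rose in both kinds of cell, from 101 to 392 in endothelial and from 136 to 607 in other cells. The difference between kinds of cell in ID1 was not tested.

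Of the junction genes, TJP1, a scaffold of tight junctions, was at 38.0 and 56.4 against 11.5 and 15.7 in other cells. CLDN5, the claudin that seals mature endothelium, had 3 and 6 UMIs, and ESAM had 9 and 15. CDH2, the cadherin of mesenchyme and neural cells, had 2 and 9. In the matrix, COL4A1, a chain of basement membrane collagen, was at 1079 and 739 CPM against 418 and 323. COL4A2, its partner chain, was at 101 and 106 against 47.9 and 49.7. LAMA5, a laminin chain of vessel basement membranes, was at 62.5 and 19.6, a log2 fold of -1.67 (-1.94 to -1.41) where other cells had -0.22. The 13 basement membrane genes had a median log2 fold of -0.55. GNG11, a G-protein subunit, was at 811 and 611, which was 5.99-fold above the other cells in Ujumqin and 30.3-fold in Hulunbuir. The other cells had GNG11 at 136 and 20.1. CAV1, the coat protein of caveolae, was at 11.1 and 12.2 against 2.23 and 0.64.

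The 8 genes of dividing cells had a median log2 fold of 0.61, where other cells had 0.51, with 2 at least 2-fold higher in Hulunbuir and 0 lower. TOP2A, a topoisomerase of dividing cells, was at 199 in Ujumqin and 467 in Hulunbuir, a log2 fold of 1.23 (1.14 to 1.32), where other cells had 1.08. The genes summed to 573 and 1084. Other cells summed to 570.1 and 971, close to the endothelial sum in Ujumqin and below it in Hulunbuir. Of thinned endothelial cells, 29.0% in Ujumqin (21.7 to 37.1%) and 49.5% in Hulunbuir (43.7 to 55.3%) had UMIs of at least 2 of these genes, and 91.9% and 96.1% unthinned. The glycolysis list also lay higher in Hulunbuir, with a median log2 fold of 0.89 where other cells had 0.67. At least 2-fold higher were 9 of its 19 genes and lower 0, beside 1543 and 433 of 7894 over all genes.

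HOX genes record position along the body axis, with high group numbers at the tail end. Endothelial cells of Hulunbuir had HOXA11 at 92.7 CPM and those of Ujumqin at 14.97, a log2 fold of 2.63 (2.33 to 2.94). Other cells had 44.8 and 17.1, a log2 fold of 1.38. HOXA11 was thus 2.07-fold above other cells in Hulunbuir and 0.873-fold in Ujumqin. HOXA13 was at 13.7 in Hulunbuir and 2.73 in Ujumqin, a log2 fold of 2.32 (1.62 to 3.11) with 1.78 in other cells. HOXA9 was at 24.1 and 12.0, a log2 fold of 1.01 with 1.84 in other cells. The HOXA genes of groups 9 to 13 led the posterior set, which summed to 148 in Hulunbuir and 36.3 in Ujumqin, below the 175 and 58.8 of other cells. Groups 1 to 4 summed to 10.3 in Hulunbuir endothelial cells against 64.3 in other cells, and groups 5 to 8 to 27.7 against 125. In Ujumqin those sums were 6.62 against 12.7, and 23.9 against 31.1. A HOXA11 UMI was found in 69.3% of Hulunbuir endothelial cells, against 3.78% of the neural cluster, and in 29.7% of Ujumqin endothelial cells, against 0.117% of erythroid-like cells. Clusters named mesenchyme had far more HOXA11 than the neural and erythroid-like clusters. They had it at 76.8, 55.4 and 46.4 CPM in Hulunbuir, beside 92.1 and 61.5 in the endothelial clusters. In Ujumqin they had it at 25.3, 15.6, 35.3 and 5.70, beside 17.5 in the endothelial cluster. Thinned to 2000 UMIs, the endothelial shares were 14.2% and 6.21%. The log2 fold of HOXA11 ran from 2.07 to 3.05 over the other ways of processing. The list of allantois genes, which HOXA11 led, moved with it, from 24.6 in Ujumqin to 123 in Hulunbuir endothelial cells. Of its 5 genes with enough UMIs, 4 were at least 2-fold higher and 0 lower, beside 1543 and 433 of 7894 over all genes. The part of allantois cells was not tested.

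**Figure D3:**
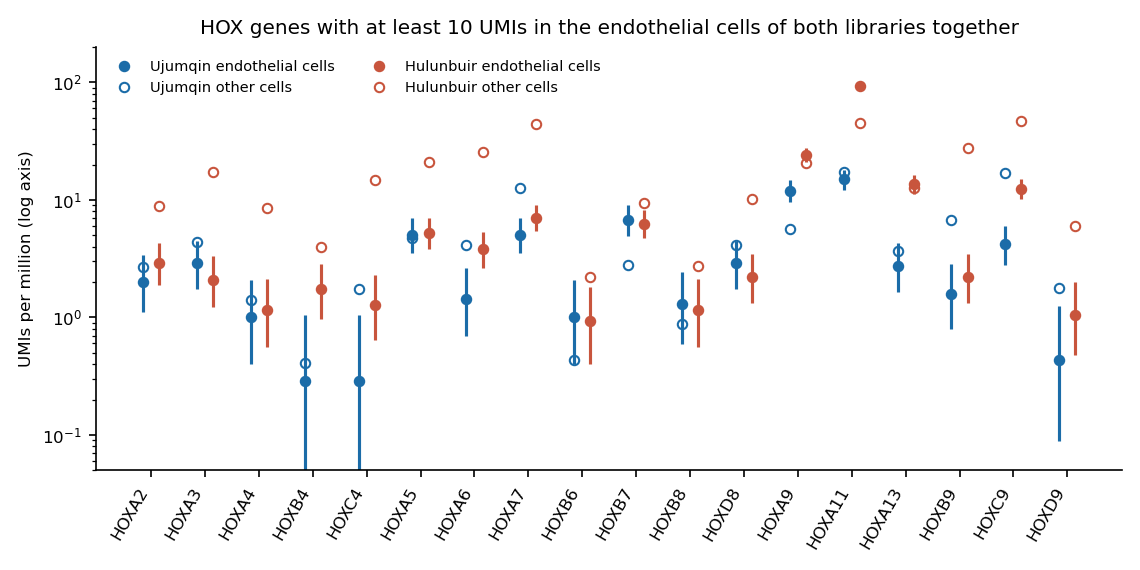
HOX genes with at least 10 UMIs in the endothelial cells of both libraries together, in CPM (log axis), for endothelial cells (filled, with 95% Poisson intervals) and other non-erythroid cells (open) of each library. HOXA11 of Hulunbuir endothelial cells, at 92.7, stands above both kinds of cell in Ujumqin.

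Across all features, 1998 had at least 50 CPM in the endothelial cells of 1 or both libraries. Of these, 19 (0.951%) were at least 4-fold higher in Hulunbuir and 30 (1.5%) at least 4-fold lower. In the other non-erythroid cells, 0.708% and 1.72% of 1978 features passed the same limits. All 19 higher features were at least 2-fold higher in the other cells too, as 29 of the 30 lower ones were lower there. Of the calls, 8 higher and 9 lower features had no symbol, and 0 were mitochondrial, ribosomal protein or haemoglobin genes. Nearly all of the calls were thus shared in direction with the other cells of the libraries.

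The higher gene of largest fold was H1-2, a linker histone. It was at 17.1 CPM in Ujumqin and 175 in Hulunbuir, a log2 fold of 3.35 (3.08 to 3.63), with 2.38 in other cells. HIST2H2AC, a core histone, was at 27.6 and 231, a log2 fold of 3.06, with 2.13 in other cells. The linker histones H1-4, H1-5 and H1-3 had log2 folds of 2.54, 2.53 and 2.30. HOXA11, C12orf65, FDFT1, TRMT10C and GSTM3 completed the 10 of largest fold, and FDFT1, an enzyme of cholesterol synthesis, rose from 20.4 to 100.5. FDFT1 had a log2 fold of 2.30 in endothelial and 1.09 in other cells.

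The lower genes were led by plasma proteins. AHSG, a plasma glycoprotein, was at 2785 CPM in Ujumqin and 0.46 in Hulunbuir, from 19354 and 4 UMIs, a log2 fold of -12.55 (-14.43 to -11.19). Of the Ujumqin AHSG UMIs, 19034 lay in 3 cells outside the endothelial cluster, part of sub-cluster 4 described below, and without the sub-clusters led by genes of other cells the log2 fold was -6.64. SERPINA1, a protease inhibitor of plasma, was at 970.4 in Ujumqin with 0 UMIs in Hulunbuir, so with the 0 set to 3 counts it was at least 2788-fold lower there. Of its 6743 UMIs, 6633 lay in 3 cells outside the endothelial cluster. APOA2, AFP and FETUB also had 0 UMIs in Hulunbuir and were at least 1644-fold, 910.4-fold and 356-fold lower. Such cells of sub-cluster 4 held 3875 of the 3977 UMIs of APOA2 in 2 cells, 2116 of the 2202 of AFP in 3 and 852 of the 861 of FETUB in 1. TTR and TF, carriers of thyroid hormone and iron, had log2 folds of -10.64 and -5.45, and of -4.59 and -1.07 without the sub-clusters led by genes of other cells. The other 3 of the 10 genes were not plasma proteins. CDKN1A, an inhibitor of the cell cycle, was at 72.7 in Ujumqin and 0.46 in Hulunbuir, a log2 fold of -7.29 (-9.17 to -5.93) with -4.35 in other cells. TIPARP, a target of the aryl hydrocarbon receptor, was at 202 and 12.0, a log2 fold of -4.08 (-4.38 to -3.79) with -1.11 in other cells. CREBRF, a regulator of stress responses, was at 61.9 and 4.99, a log2 fold of -3.63 with -2.22. FOS, an immediate-early factor that dissociation can raise, was at 339 and 45.3, a log2 fold of -2.91 with -2.42 in other cells. Of the 15 immediate-early genes with enough UMIs, 6 were at least 2-fold lower in Hulunbuir and 0 were higher, beside 433 and 1543 of 7894 over all genes.

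MYC, a transcription factor of growth in the same list, was at 54.7 in Ujumqin and 97.0 in Hulunbuir endothelial cells. Its log2 fold was 0.83 (0.65 to 1.01) there and -0.84 in other cells, which had 79.7 and 44.5. Over the other ways of processing the log2 fold ran from 0.35 with at least 2 rule genes to 0.93. The 0.35 is below the shift of 0.38, but that shift is of the main choice of cells and is not given for the other choice. The difference between the kinds of cell was not tested.

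**Figure D4:**
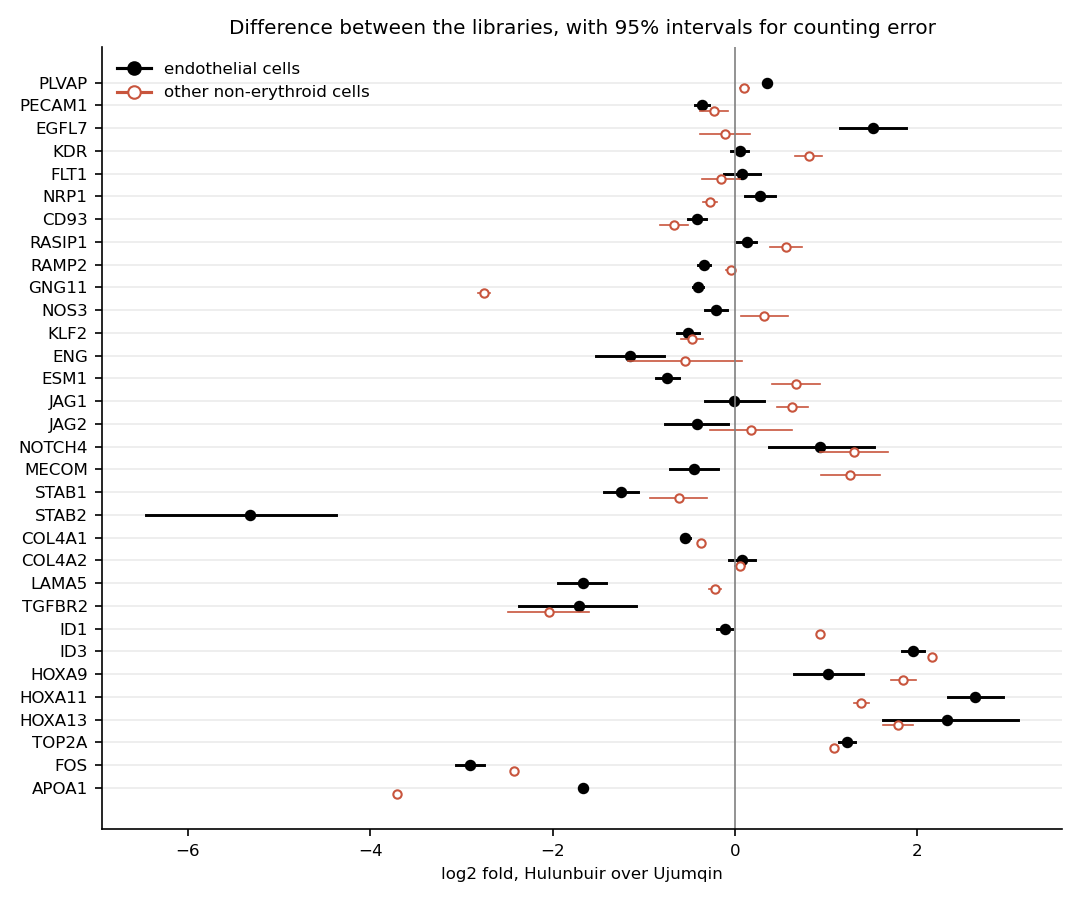
Log2 fold of Hulunbuir over Ujumqin for 32 genes of the lists, in endothelial cells (filled) and other non-erythroid cells (open), with 95% intervals. HOXA11 at 2.63 and STAB2 at -5.32 are among the points farthest from 0, and KDR lies at 0.05.

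Markers of other cell types moved with several of these results. The extraembryonic endoderm list had 11 of 13 genes among the features, and it summed to 10210 CPM in Ujumqin endothelial cells and 1578 in Hulunbuir. All 11 had at least 10 UMIs, and all 11 were at least 2-fold lower in Hulunbuir, beside 433 of 7894 over all genes. Other non-erythroid cells summed to 11757 and 169. APOA1 was the most abundant of the list in both libraries. AFP, APOA2, SERPINA1, ALB and APOC3 were at 0 in Hulunbuir endothelial cells, while APOA1 was not. In erythroid-like cells of Ujumqin, 64.2% had an AHSG UMI at a median of 20361 UMIs, against 79.1% of endothelial cells at a median of 30722. Thinned to 2000 UMIs, the shares were 11.04% and 9.66%, so the endothelial share was not above the background.

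APOA1, the main protein of high-density lipoprotein, behaved differently. It was at 5005 CPM in Ujumqin and 1573 in Hulunbuir endothelial cells, 3.98-fold and 16.4-fold above the other cells. Thinned to 2000 UMIs, 86.2% of Ujumqin and 64.7% of Hulunbuir endothelial cells had an APOA1 UMI, against 5.87% of erythroid-like cells and 9.02% of the neural cluster. Unthinned, the shares were 93.9%, 94.5%, 37.9% and 26.1%. APOA1 was thus above the background in both libraries, and in Hulunbuir it stood there without AFP, APOA2 or SERPINA1.

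The 11 mesenchyme genes summed to 716 in Ujumqin and 136 in Hulunbuir endothelial cells, with COL1A1 most abundant at 199 and 33.7. TWIST2 was at 0 in both, and PDGFRA had 2 UMIs in each. Other cells summed to 4939 and 1818. The log2 fold of COL1A1 between the libraries was -2.57 in all endothelial cells and 1.19 in cells with at least 4 rule genes. It was -0.10 without the sub-clusters described below that such genes led, and -1.28 in the endothelial clusters only. Without those sub-clusters COL1A2, COL3A1 and LUM were still lower in Hulunbuir, at -2.24, -0.88 and -0.74, and TWIST1 was higher at 1.07. The 13 erythroid genes with a feature summed to 77.1 and 8.70, with AHSP leading in Ujumqin at 37.9 and SLC25A37 in Hulunbuir at 4.29, and 8 were at 0 in Hulunbuir. Of 7 megakaryocyte genes, CLEC1B led in Ujumqin at 28.2, the sums were 52.0 and 0.46, and PPBP was at 0 in both. Without those sub-clusters CLEC1B was at 37.7 and 0.13, GP1BB at 27.1 and 0, AHSP at 32.9 and 0.65, and SLC25A37 at 3.96 and 4.40. Of the Ujumqin endothelial cells, 2 lay in a cluster led by CLEC1B and GP1BB and 4 in one named macrophage. The part of these cells in the results was not tested.

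The 10 macrophage genes with a feature summed to 77.4 and 17.1, with FCER1G leading at 40.7 and 6.38, and CSF1R, C1QB and C1QC at 0. The 10 mural genes summed to 80.7 and 43.1. ACTA2, the actin of smooth muscle, led them in Ujumqin at 26.3, and RGS5, which endothelial cells had above other cells, led in Hulunbuir at 28.7. PDGFRB, the receptor that defines mural cells, had 2 and 1 UMIs. The 10 epithelial genes summed to 328 and 373, far under the 2903 and 6030.1 of other cells, with KRT18 leading at 144 and 160.5 and CDH1 at 0. Of the 1001 KRT18 UMIs of the Ujumqin endothelial cells, 641 lay in the 14 cells of sub-cluster 5. Without the sub-clusters led by genes of other cells KRT18 was at 23.7 and 115 (log2 fold 2.28). The neural list summed to 184 and 458, nearly all of it NES, an intermediate filament of progenitors and young endothelium, while SOX1 and SOX3 were at 0. Lists of cardiomyocytes, somites, caudal progenitors, allantois, lateral plate and neural crest summed to 34.3, 10.5, 0.14, 24.6, 13.1 and 44.3 in Ujumqin and to 32.3, 23.0, 2.20, 123, 26.2 and 39.3 in Hulunbuir. The leading genes of those lists were MYL4, DLL1 and MEOX2, T and FGF8, HOXA11, HAND2 and ETS1. NKX2-5, TBX6, CDX1 and PAX2 were at 0 in both libraries, and the part of these cells was not tested. The metallothionein genes, which bind zinc and copper, summed to 53.5 in Ujumqin endothelial cells and 6.27 in Hulunbuir, against 314 and 13.7 in other cells. The heat-shock genes summed to 8037 and 10917, led by HSP90AB1.

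Endothelial cells of each library were then clustered on their own, without the rule genes. Ujumqin gave 5 sub-clusters and Hulunbuir 6, numbered by size. They are described by the genes of largest fold over the other endothelial cells of the library, and none was given a name.

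Ujumqin sub-cluster 1 held 46 cells and was led by ECM1, STAB2, DEPP1, ESM1 and CRABP1, the last in 8.70% of its cells. Its arterial genes summed to 487 CPM and its venous genes to 361, both the most of the 5. Without STAB1 and STAB2 the venous sum was 29.6, below the 41.7 and 42.0 of sub-clusters 2 and 3. Of the STAB2 UMIs of the Ujumqin endothelial cells, 217 lay in these cells, at 121 CPM, in 30.4% of them. ECM1 is a secreted matrix protein and DEPP1 a target of FOXO factors. Sub-cluster 2 held 39 cells and was led by PEG10, TTK, S100A4, ITGA6 and RIF1. TTK is a kinase of mitosis, and TOP2A was at 408 there against 142 in sub-cluster 1. Sub-cluster 3 held 28 cells and was led by MT1A, S100A5, ID3, SLC27A3 and IGFBP3, with MT1A in 14.3% of its cells, and NR2F2 at 37.5 against 8.94 in sub-cluster 1.

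Sub-clusters 4 and 5 of Ujumqin were led by genes of other cells. Sub-cluster 4 held 21 cells with a median of 83166 UMIs and was led by AHSG, SERPINA1, TTR, APOA2 and FETUB, the last in 19.0% of its cells. Its AHSG level of 12269 CPM came from few cells, since AHSG was found in 76.2% of its cells and in 76.1% of sub-cluster 1, which had 54.2 CPM. The 16 cells in the endothelial cluster had 50 AHSG UMIs, or 36.1 CPM, with KDR at 192 and NOS3 at 229.6 CPM. The 5 cells outside it had 19034 AHSG UMIs, in 3 cells, with 8 UMIs of KDR and 3 of NOS3. Sub-cluster 5 held 14 cells, all with exactly 3 rule genes and 0 in the endothelial cluster, and was led by ACTA2, LUM, DCN, COL1A1 and KRT19. Its KDR level was 42.3 and its NOS3 level 8.45, the lowest of the 5. Those cells had little of the endothelial genes that the rule did not use.

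Hulunbuir sub-cluster 1 held 69 cells and was led by COLEC12, DSP, HSPH1, INCENP and CEMIP2, with TOP2A at 616. Sub-cluster 2 held 58 cells and was led by CXCR4, IGFBP3, DEPP1, ESM1 and LIMCH1, and its arterial genes summed to 967 and its venous genes to 153, both the most of the 6. Without STAB1 and STAB2 the venous sum was 43.1, below the 61.4 of sub-cluster 3. Sub-cluster 3 held 47 cells and was led by SST, SPP1, S100A4, PLCD1 and COL1A2. SST, the hormone somatostatin, was at 192 there, but the 173 SST UMIs of the Hulunbuir endothelial cells lay in 3 cells. SPP1 was found in 25.5% of the 47 cells and COL1A2 in 31.9%, and 40 of the 47 lay in the endothelial clusters. Sub-cluster 3 also stood apart in its doublet scores. It held 19 of the 37 Hulunbuir endothelial cells among the highest scores of Scrublet, a program that scores barcodes for 2 cells. Sub-cluster 4 held 47 cells and was led by SPRYD7, NFE2L3, DNAAF5, B9D1 and FOCAD. Sub-cluster 5 held 46 cells and was led by RGCC, CYSTM1, ENG, PDGFD and LCK. ENG and PDGFD, a growth factor of endothelium, are both endothelial genes. Sub-cluster 6 held 42 cells and was led by SLC51B, MYDGF, PLA2G7, CRABP1 and GALNT11, with CRABP1 in 14.3% of its cells and KDR at 137 and ESM1 at 5.17.

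**Figure D5:**
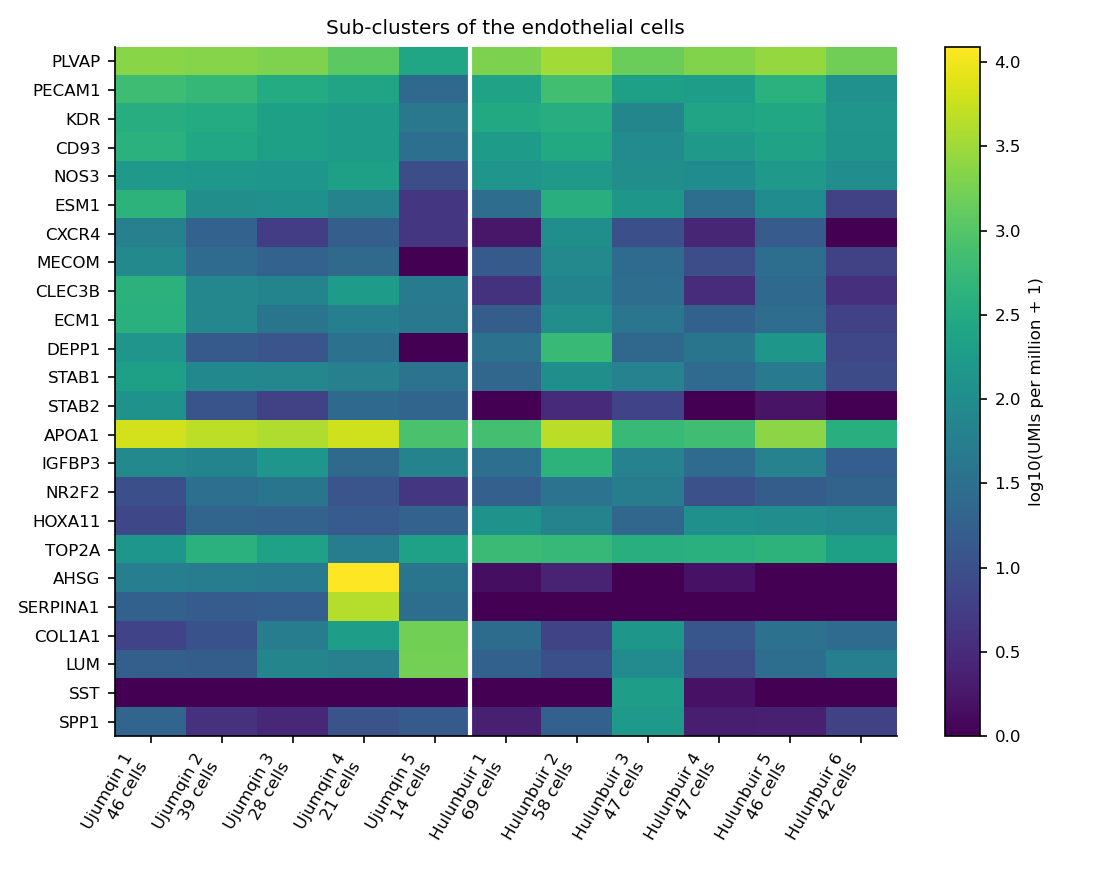
Levels of 24 genes in the sub-clusters of endothelial cells of each library, as log10 of CPM plus 1. AHSG reaches 12269 in Ujumqin sub-cluster 4, nearly all of it in 3 cells, and CXCR4 and MECOM are highest in Ujumqin sub-cluster 1 and Hulunbuir sub-cluster 2.

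Of the 50 leading genes of Ujumqin sub-cluster 1, 17 (34%) were among the 50 of Hulunbuir sub-cluster 2. These included ECM1, DEPP1, ESM1, CLEC3B, CXCR4, GPIHBP1, MECOM, STAB1 and CAV1. Ujumqin sub-cluster 5 and Hulunbuir sub-cluster 3 also shared 17, among them LUM, DCN, COL1A1 and KRT18. Every other pair shared 8 or fewer. In the first pair the arterial genes summed to 487 in Ujumqin and 967 in Hulunbuir, and to 404 and 528 without IGFBP3. MECOM was at 82.1 and 82.5, and GJA5 at 13.4 and 17.1. CXCR4 was at 58.6 and 109, a log2 fold of 0.90 (0.53 to 1.27), and HEY1 at 8.38 and 24.5, a log2 fold of 1.55 (0.63 to 2.54). ESM1 was at 436 and 369, and KDR at 347 and 358. Other genes differed between the libraries within the pair. STAB2 was at 121 and 2.23, a log2 fold of -5.76 (-8.05 to -4.20), CLEC3B at 416 and 69.1, and HOXA11 at 6.70 and 67.6. IGFBP3, a binding protein of insulin-like growth factors, was at 82.7 and 440 (log2 fold 2.41), where all endothelial cells had a log2 fold of 0.38. APOA1 was at 6386 and 4588, closer than in all endothelial cells, with a log2 fold of -0.48 there and -1.67 over all. At resolution 2, 53.4% of the cells of Hulunbuir sub-cluster 2 and 73.9% of Ujumqin sub-cluster 1 stayed together, and at 0.5 the Hulunbuir cells fell in a group of 98. Leading genes of a cluster were chosen from the same cells, so these overlaps are descriptions.

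Without Ujumqin sub-clusters 4 and 5 and Hulunbuir sub-cluster 3, 113 and 262 endothelial cells were left. Of the cells left out, 16 of 21, 0 of 14 and 40 of 47 lay in the endothelial clusters. At resolution 0.5 Ujumqin sub-cluster 4 joined sub-cluster 3 in a group of 48, so this choice depends on the resolution. In the cells left AHSG was at 51.7 in Ujumqin and 0.52 in Hulunbuir. SERPINA1, APOA2, AFP and FETUB were at 16.04, 16.04, 14.8 and 1.04 in Ujumqin with 0 UMIs in Hulunbuir, so their folds were far smaller than in all endothelial cells. COL1A1 was at 22.3 and 20.8. HOXA11 was at 14.8 and 101, a log2 fold of 2.77 (2.42 to 3.14). STAB2 was at 49.99 and 0.52, with 240 and 4 UMIs. The HOXA11 and STAB2 differences were thus as large in these cells as in all. That of COL1A1 was not detectable at this depth, at -0.10 (-0.46 to 0.27), though the interval lay below the shift of 0.38. That shift is of all endothelial cells, and is not given for the cells left. COL1A2, COL3A1 and LUM stayed lower in Hulunbuir, with log2 folds of -2.24, -0.88 and -0.74. Of the Ujumqin UMIs left, 143 of the 215 of COL1A2 lay in sub-cluster 1 and 112 of the 163 of LUM in sub-cluster 3. DCN was at 0.47 (-0.12 to 1.08), and TWIST1 was higher at 1.07. KDR was at 296 and 278, NOS3 at 149 and 132, and STAB1 at 127 and 41.4. CDKN1A was at 86.4 and 0.39 and FOS at 390 and 41.6, so both kept their direction.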

How the data were processed

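The deposited matrices hold counts (UMIs per gene and barcode) that the authors made with Cell Ranger. The matrix header names version 5.0.0 and the submitters' notes 3.1.0. For the 83 symbols on several of the 26478 features, the first was taken. Members and gene lists were chosen with earlier results of these data known. Kept barcodes of each library were clustered on their own (2000 variable genes without the rule genes and EMCN, 30 components, 20 neighbours, Leiden at resolution 1), and named from marker lists. Endothelial cells were clustered in the same way with 15 components and 15 neighbours, and their leading genes ranked by fold with 5 CPM added. A 0 in a fold was set to 3 counts. Doublets were kept, since the automatic threshold of Scrublet marked 189 cells in Ujumqin and 1 in Hulunbuir, where 13.6% and 8.57% were expected. The text names the 20 genes of largest fold over other cells, the 10 each way between libraries, the 5 leading genes of each sub-cluster and genes of 40 lists (372 of 415 genes among the features). ENG, MYC, FOS, GNG11, APOA1, STAB2, CLEC3B and GPIHBP1 were singled out after their values were seen. Counts of promoter letters were not run, since no promoter table was available. Alternatives changed the cell filter, rule, doublets, thinning, fold, minimum and scaling. Scripts ran in Python 3.11.15 with scanpy 1.11.5, leidenalg 0.10.2, igraph 0.11.9, matplotlib 3.10.9, scikit-learn 1.9.0, pandas 2.3.3, scipy 1.17.1 and numpy 2.4.6.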

Additional observations from a re-analysis of the deposited data

Results flagged for a closer look

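Barcodes outside the cell filter also met the rule, 12 in Ujumqin and 43 in Hulunbuir, a signal in data that the comparisons did not use. All of them had at least 200 genes and 10% or more mitochondrial UMIs, with medians of 13.2% and 20.5%. Their KDR levels were 591 and 468 CPM. The difference between the libraries was not tested. The labels give 1 library per breed, so breed cannot be told apart from library or pool.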

How the results depend on the processing

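No paired analysis was possible because the labels pair no samples and each breed has 1 library. A value counts as kept inside its 95% counting interval, within 1.5 times for a count, or, for a list median, no farther off than the interval of the list's summed fold reaches on average to either side, and so may still have changed. Of the alternatives to the results of the design, 57 kept the value and 55 moved it. Of those for 21 named genes, 136 kept it and 73 moved it, and 1 turned a fold of at least 2 around. The log2 folds of 6 of the 21 genes had both signs, namely CD93 (-0.60 to 0.15), COL1A1, KDR (-0.09 to 0.68), NOS3 (-0.35 to 0.31), PECAM1 (-0.62 to 0.14) and RASIP1 (-0.06 to 0.67). The causes were not tested. The log2 fold of COL1A1 went from -2.57 to 1.19 with at least 4 rule genes.

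The endothelial share of kept cells in Ujumqin was 1.02%. It became 1.46% with at least 500 genes per cell, 3.11% with at least 2 rule genes, 0.440% with at least 4, 0.502% without PECAM1 in the rule, 0.0624% thinned to 1000 UMIs and 0.106% thinned to 2000, or 0.220% of thinned cells that were not erythroid-like, a choice made after seeing the data. In Hulunbuir 3.22% became 7.12% with at least 2 rule genes, 1.54% with at least 4, 1.64% without PECAM1, 0.132% thinned to 1000 UMIs and 0.282% thinned to 2000, with or without erythroid-like cells.

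The 62 features higher than in other cells became 24 with at least 2 rule genes and 147 at a 2-fold limit. The 19 higher in Hulunbuir became 29 with at least 4 rule genes, 159 at a 2-fold limit and 38 at a minimum of 20 CPM. The 30 lower became 18 with at least 4 rule genes, 64 at a 2-fold limit, 53 at 20 CPM, 19 without the sub-clusters led by genes of other cells and 18 with cells of the endothelial clusters only. Those last 2 choices of cells were made after seeing the data.

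The arterial median of 0.04 became 0.25 without the cell filter, 0.45 with at least 2 rule genes, -0.20 without those sub-clusters and -0.10 in the endothelial clusters only. The venous median of -0.56 became -0.019 with at least 2 rule genes, -1.01 with at least 4, -0.88 without PECAM1, -0.31 as a mean of the cells' CPM and -1.03 without those sub-clusters. The haematopoietic median of -3.48 became -3.12 with at least 2 rule genes, -1.56 with at least 4, -1.64 without PECAM1, -1.90 without the highest Scrublet scores, -4.19 as a mean of the cells' CPM, -2.08 without those sub-clusters and -1.79 in the endothelial clusters only.

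The share of cells with arterial UMIs was 12.4% in Ujumqin and 10.2% in Hulunbuir. It became 5.41% and 5.54% thinned to 1000 UMIs, 79.1% and 67.6% without thinning, and 37.2% and 36.6% with a UMI of 1 gene. The venous shares of 1.38% and 1.32% became 40.5% and 25.6% without thinning and 19.3% and 12.9% with 1 gene, and that of Hulunbuir became 0 at 1000 UMIs. The haematopoietic shares of 0 became 22.3% and 8.41% without thinning and 8.28% and 4.29% with 1 gene. At resolution 2 the 6 sub-clusters of Hulunbuir became 11.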
